A study of Mus musculus with 4 samples.

Results

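Cadherins other than E-cadherin were described here as 10 genes named in advance: Cdh2, Cdh3, Cdh5, Cdh10, Cdh11, Cdh13, Cdh17, Cdh18, Cdh19 and Cdh23. All 10 were found by symbol among the 20325 genes of the deposited expression matrix. The gene names were picked with the difference between the groups already known, so every value of these 10 genes in that comparison is given as a description, without a test. The RNA came from C3H10T1/2 cells, a multipotent mouse mesenchymal line first taken from C3H embryos, at passages 10 to 15 and grown in serum. One group stably expressed FLAG-HA-tagged H3.3 histone of wild type sequence (WT, 2 libraries), and the other the same tagged histone with lysine 36 replaced by methionine (K36M, 2 libraries). Both groups therefore carried a tagged H3.3 transgene, and no library of cells without one is among the 4. The promoter of the transgene, and whether each line was 1 clone or a pool, are not given in the sources used here. Separate cultures are not stated for the replicates, so the spread behind each p-value is that of these libraries and may be technical.

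Cadherins are calcium-dependent adhesion proteins of the cell surface. Classical cadherins of type I and type II span the membrane, bind a cadherin on the next cell through their outermost repeat, and hold beta-catenin and p120-catenin on their tails, through which alpha-catenin links them to actin. Mesenchymal cells are known for N-cadherin (Cdh2) and cadherin-11 (Cdh11) in place of E-cadherin (Cdh1), and condensation of mesenchyme before cartilage forms is known to involve such contacts. Other members of the family lack the catenin-binding tail or are built for special structures such as the links between hair bundles of the inner ear.

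The libraries held 23343297 to 56041798 expected counts (RSEM estimates, which can be fractions), with a mean depth 1.85 times as high in K36M. Levels are given as CPM, which set the libraries on a common size with TMM factors. A count of 3 in 1 library corresponds to 0.0528 to 0.130 CPM. All 12 mesenchyme and fibroblast markers were detected, with summed levels of 52139 and 52650 CPM in WT and 31908 and 29880 CPM in K36M. The replicates of a group correlated at r = 0.995 and 0.996 over genes, against 0.888 to 0.891 between groups, and no library stood apart from its group. The labels were not checked against the transgene here.

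Of the type I cadherins, Cdh2, the N-cadherin gene, was abundant in both groups. It measured 321 and 325 CPM in WT replicates 1 and 2, against 248 and 242 CPM in K36M. Both K36M libraries lay below both WT libraries, and the means of 323 ± 3.37 and 245 ± 4.53 CPM (SD, n = 2) put Cdh2 1.32-fold lower in K36M. Cdh3, the P-cadherin gene of basal epithelia and placenta, was hardly detected. It had 3 and 0 counts in WT and 13.45 and 8 counts in K36M, which is 0.121 and 0 CPM against 0.237 and 0.230 CPM. The ratio of group means was 3.86, with a counting interval of 1.09 to 19.1 (95%, Clopper-Pearson on the group counts), but 1.92 without WT replicate 2. Leaving out WT replicate 1 leaves 0 counts in WT, and the ratio to a floor of 3 counts was then 1.79. Intervals of this kind cover counting error only. Cdh3 was the 1 gene of the 10 that did not pass the filter on low counts, which asks for enough counts in at least 2 libraries.

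Among the type II cadherins, Cdh11, known from osteoblasts and loose mesenchyme, carried nearly all of the RNA. It measured 160 and 173 CPM in WT against 359 and 370 CPM in K36M. The K36M libraries were both higher, and the means of 167 ± 9.80 and 364 ± 7.99 CPM (SD, n = 2) differ 2.19-fold. Cdh5, which encodes the VE-cadherin of endothelial junctions, was close to detection. Its levels were 0.847 and 0.434 CPM in WT, from 21 and 10 counts, and 2.25 and 1.87 CPM in K36M, from 128 and 65 counts. The groups did not overlap, and the mean was 3.22-fold higher in K36M with a counting interval of 2.22 to 4.92. The WT libraries differed from each other 1.95-fold, the widest replicate gap among the 9 members with counts in every library.

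**Figure D1:**
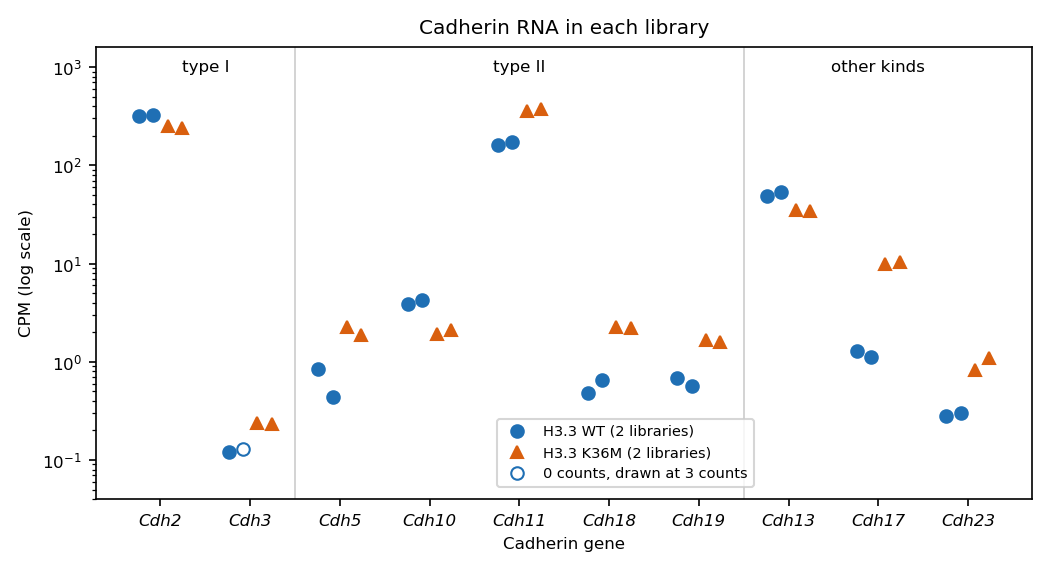
CPM (scaled counts, log axis) of the 10 cadherin genes in each of the 4 libraries, circles for H3.3 WT and triangles for H3.3 K36M. An open circle stands for a library at 0 counts, drawn at the level of 3 counts, and vertical lines part type I, type II and other cadherins. Cdh2, Cdh10 and Cdh13 sit lower in both K36M libraries and the other 7 genes sit higher in both.

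Cdh10, Cdh18 and Cdh19 are type II cadherins known mainly from the nervous system. Cdh10 measured 3.83 and 4.21 CPM in WT against 1.92 and 2.13 CPM in K36M. Both K36M libraries were lower, and the means of 4.02 ± 0.270 and 2.02 ± 0.149 CPM (SD, n = 2) put Cdh10 1.99-fold lower, with a counting interval of 1.63 to 2.47. Cdh18 ran the other way, at 0.484 and 0.652 CPM in WT and 2.25 and 2.19 CPM in K36M, 3.91-fold higher (counting interval 2.63 to 6.13). Cdh19, a cadherin of Schwann cell precursors, measured 0.686 and 0.565 CPM in WT against 1.65 and 1.58 CPM in K36M, 2.59-fold higher (1.74 to 3.98). For all 3 genes the libraries were separated by group, though Cdh18 and Cdh19 rested on 12 to 17 counts in each WT library.

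Cdh10 and Cdh18 lie on chromosome 15 and differed in opposite directions, so their upstream sequences are shown. RefSeq windows on GRCm38.p6 matched 3 of the 10 members, and each sequence gives the 250 bases before the listed start, 5′ to 3′ on the gene's strand, with CpG dinucleotides in capitals. The first is chr15:18820079-18820328 (plus strand) and the second chr15:23036213-23036462 (plus strand).
Cdh10: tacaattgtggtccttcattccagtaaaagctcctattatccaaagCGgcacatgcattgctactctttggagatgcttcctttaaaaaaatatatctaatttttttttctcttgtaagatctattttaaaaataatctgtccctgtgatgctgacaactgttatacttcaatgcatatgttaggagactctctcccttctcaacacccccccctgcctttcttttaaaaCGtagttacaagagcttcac
Cdh18: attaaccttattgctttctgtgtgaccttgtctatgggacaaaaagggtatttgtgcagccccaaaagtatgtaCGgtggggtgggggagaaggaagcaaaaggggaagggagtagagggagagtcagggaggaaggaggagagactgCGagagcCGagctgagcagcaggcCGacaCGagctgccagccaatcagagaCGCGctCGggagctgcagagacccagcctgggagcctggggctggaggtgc
The Cdh10 window holds 2 CpGs at 36.8% G and C, and 18.8% of the 32851 RefSeq windows of the same length hold fewer. The Cdh18 window holds 8 CpGs at 58.0% G and C, and 57.0% of windows hold fewer. Both starts lie inside the span that GENCODE gives the gene, so longer transcripts begin further upstream. These counts describe the letters only, since neither DNA methylation nor factor binding is in the files used here.

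The 3 members outside the classical types differ in build. Cdh13 encodes T-cadherin, which is held by a lipid anchor, has no cytoplasmic tail and is known as a receptor for adiponectin. It measured 48.9 and 53.5 CPM in WT against 35.2 and 34.2 CPM in K36M. Both K36M libraries were lower, and the means of 51.2 ± 3.24 and 34.7 ± 0.695 CPM (SD, n = 2) put it 1.48-fold lower. Cdh17 encodes the liver-intestine cadherin, an adhesion protein of gut epithelium with a short tail that does not bind catenins. It had 32 and 26 counts in WT and 562 and 356 counts in K36M, or 1.29 and 1.13 CPM against 9.89 and 10.2 CPM. This 8.32-fold higher mean (counting interval 6.34 to 11.0) was the largest ratio among the 10.

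Cdh23 encodes the long cadherin that joins protocadherin-15 in the tip links of hair cells. It had 7 and 7 counts in WT and 47 and 38 in K36M, or 0.282 and 0.304 CPM against 0.827 and 1.09 CPM. The K36M libraries were both higher, by 3.28-fold in the means, with a counting interval of 1.79 to 6.04. It passed the filter through the K36M libraries only. Its upstream window is the third that RefSeq lists for the members, at chr10:60696491-60696740 on the minus strand, shown with CpGs in capitals to set beside the other two.
Cdh23: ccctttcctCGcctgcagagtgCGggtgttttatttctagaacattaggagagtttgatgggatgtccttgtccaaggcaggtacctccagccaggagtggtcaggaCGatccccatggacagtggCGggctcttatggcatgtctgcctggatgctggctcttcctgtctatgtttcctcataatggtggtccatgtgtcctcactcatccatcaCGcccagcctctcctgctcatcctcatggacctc
This window holds 5 CpGs at 54.4% G and C, between the other two, and 44.4% of windows hold fewer. The E-box letters CAGGTG, the core that Snail and Zeb repressors are known to bind, were searched on both strands. They occur in none of these 3 windows, and in 17.2% of all windows. That says only that the letters are not in these 250 bases.

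Counted together, 7 of the 10 genes stood higher in K36M and 3 lower, and in all 10 the libraries were separated by group. Separation of this kind was common: among the 13162 genes tested it held for 87.1%, 44.0% with K36M higher and 43.1% with K36M lower. A mean at least 2-fold higher in K36M was found for 7 of the 10, of which 6 passed the filter, against 12.7% of all genes tested. None of the 10 was at least 2-fold lower, against 8.68% of all genes tested, but Cdh10 sat at the limit, with a ratio of 0.503. Its ratio was 0.474 under the authors' library factors, 0.479 without WT replicate 1 and 0.478 without K36M replicate 2. Since the genes were picked on this comparison, nothing is read from these shares. None of the 10 is in the authors' deposited table of 594 genes. The listed genes that do stand there have authors' folds of at least 11.0, or of 0.0829 for Gsc. The largest ratio among the 10 members was 8.32, so absence from that table does not mean that a gene was unchanged.

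The order of the members shows which cadherin led in each group. To compare genes, CPM were divided by the coding length of the gene (per kb). The untranslated parts of the transcripts are not in that length, so levels and shares compared between genes are approximate. In WT, Cdh2 led at 118 and 120 CPM per kb, followed by Cdh11 at 66.8 and 72.6 and Cdh13 at 22.8 and 25.0. In K36M, Cdh11 led at 150 and 155 CPM per kb, followed by Cdh2 at 91.4 and 89.1 and Cdh13 at 16.4 and 16.0. The libraries of these neighbours in the order did not overlap in either group.

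Every other member was far lower. In WT, Cdh10 ranked 6 by mean among the 23 Cdh-named genes at 1.62 and 1.78 CPM per kb, after Cdh1 and Cdh24, which are not members. Its libraries overlapped those of Cdh24 (2.08 and 1.72), so the order of that pair is not settled. Cdh17 (0.520 and 0.455) followed, and Cdh5, Cdh19 and Cdh18 (0.185 to 0.360) overlapped one another. In K36M, Cdh17 (3.99 and 4.13) had passed Cdh10, while Cdh18, Cdh5 and Cdh10 lay between 0.795 and 0.958, Cdh5 overlapping both of the others, with Cdh19 (0.716 and 0.685) below them. Cdh23 and Cdh3 came last of the members in both groups, at 0.109 CPM per kb or less.

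The exchange of place between Cdh2 and Cdh11 can be given as a ratio within a library, which no scaling between libraries alters. Cdh2 had 2.01 and 1.88 times the CPM of Cdh11 in the WT libraries and 0.693 and 0.654 times in the K36M libraries. As shares of the summed level per kb of the 23 Cdh-named genes, Cdh2 made up 54.0% ± 1.02 in WT and 31.8% ± 0.780 in K36M (SD, n = 2). Cdh11 made up 31.7% ± 0.940 and 53.7% ± 0.851, and Cdh13 10.9% ± 0.371 and 5.70% ± 0.149. The sum itself was 216 and 225 CPM per kb in WT and 283 and 285 in K36M.

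**Figure D2:**
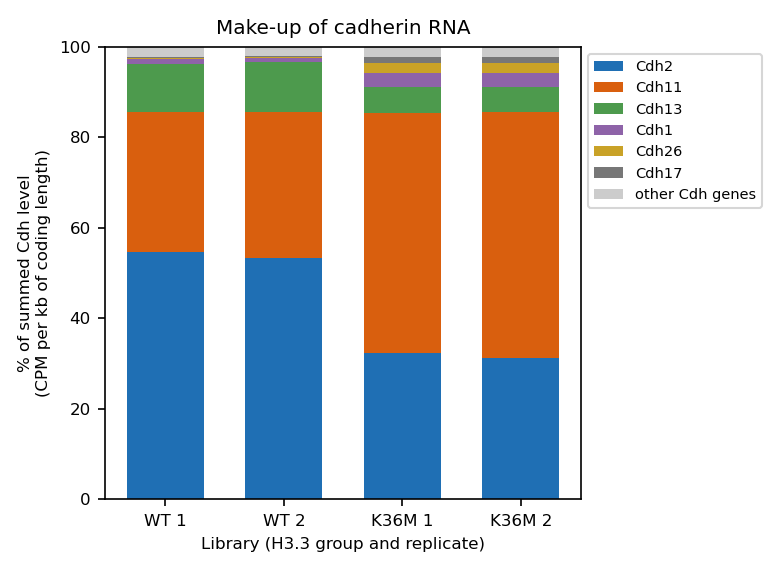
Stacked bars give the percent of the summed level (CPM per kb of coding length) of 23 Cdh-named genes in each of the 4 libraries, by gene. Cdh2 fills 53.3% to 54.7% of each WT bar and Cdh11 53.1% to 54.3% of each K36M bar.

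Replicates lay close together for the abundant members. The coefficient of variation between the 2 libraries of a group was 1.04% and 1.85% for Cdh2 and 5.89% and 2.19% for Cdh11 in WT and K36M. Counting alone would give about 1.14% and 0.972% for Cdh2 and 1.59% and 0.798% for Cdh11. The spread thus exceeded counting error for Cdh11 in both groups and for Cdh2 in K36M. For Cdh5 the coefficient reached 45.5% in WT, where counting alone would give about 25.6%. For Cdh23 in WT it was 5.23%, below the 37.8% of counting error, so the closeness of those 2 libraries is no measure of precision.

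The rest of the cadherin superfamily is given from a list of 40 (other Cdh and Cdhr genes, Fat and Dchs, Celsr, calsyntenins, desmosomal cadherins and Ret, protocadherins left out), of which 39 were in the matrix and 14 passed the filter. In edgeR's test 8 of the 14 rose and 5 fell at an adjusted p under 0.05, where 75.6% of all genes tested passed, 38.5% rising and 37.1% falling. Fat2 and Dchs1 passed the filter through the K36M libraries only and Cdhr4 through the WT libraries only, so the filter left them little room to go the other way. Of the 11 genes that met the filter in both groups, 6 rose and 4 fell, against 35.7% and 38.9% of the 11892 such genes. The median log2 fold change was 1.16 over the 14 and 0.31 over the 11, against 0.00 and -0.02 over all genes chosen likewise. The 25 untested genes were too low for the filter, so these counts say nothing of the family as a whole.

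Fat2, a giant cadherin known from epithelial migration and cerebellar neurons, rose from 0.161 and 0.0434 CPM to 4.21 and 4.78 CPM (log2 fold change 5.36 ± 0.33 SE, adjusted p = 3.5e-11). Fat2 passed the filter through the K36M libraries only, so its direction was largely set by the filter and its p-value lends that direction little weight. With 5 counts in WT its log2 fold change rested on single libraries, at 6.58 without WT replicate 1 and 4.76 without WT replicate 2. The ratio of means was 43.9 with a counting interval of 18.0 to 131. Ret, the receptor of glial cell line-derived factors, whose outer part holds cadherin-like repeats, rose from 3.07 and 3.21 CPM to 53.5 and 51.7 CPM (4.07 ± 0.08, adjusted p = 1.59e-18). Cdh26, a cadherin known from epithelia, rose from 1.01 and 1.04 CPM to 13.8 and 13.7 CPM (3.74 ± 0.14, adjusted p = 2.12e-14). Fat2, Ret and Cdh26 also stand in the authors' deposited table, with folds of 32.3, 15.7 and 12.3 on the authors' scale. Cdh1, the E-cadherin gene, rose from 5.89 and 5.56 CPM to 22.3 and 24.1 CPM (2.01 ± 0.09, adjusted p = 4.57e-13), and per kb stood far below Cdh2 and Cdh11 in K36M at 8.42 and 9.09.

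Among genes with a mean of at least 1 CPM in a group, the largest falls in this list were smaller than its largest rises. Celsr2, a planar polarity cadherin, fell from 1.77 and 2.22 CPM to 0.510 and 0.691 CPM (log2 fold change -1.77 ± 0.25 SE, adjusted p = 4.72e-06). Clstn1, which encodes the transport adaptor calsyntenin-1, fell from 388 and 390 CPM to 259 and 235 CPM (-0.65 ± 0.04, adjusted p = 9.85e-11). Fat4, a partner of Dchs1 in tissue polarity, fell slightly (-0.20 ± 0.05, adjusted p = 0.000846). Cdhr1, the photoreceptor cadherin, and Cdh24, a type II cadherin, were named after their values were seen. Cdhr1 rose (2.52 ± 0.11, adjusted p = 2.01e-13), while Cdh24 was higher by 0.31 ± 0.13 on the log2 scale (adjusted p = 0.0349) and lost its call when WT replicate 2 (adjusted p = 0.342) or K36M replicate 1 (0.168) was left out, under the authors' factors (0.117) and with the DESeq2 Wald test (0.239).

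Several classical cadherins stayed at or near 0. Cdh7 and Cdh12 had 0 counts in all 4 libraries. Cdh4, the R-cadherin gene, had 0 counts in WT and 0 and 1 in K36M. Cdh6, a type II cadherin of kidney and neural crest, had 0 counts in WT and 10 and 4 in K36M. That is 2.32-fold higher against a floor of 3 counts over the WT group, with a counting interval that starts at 1.73. Cdh9 and Cdh15, like Cdh7 and Cdh12, were named after their values were seen. Cdh8, Cdh16, Cdh20 and Cdh22 had 3 counts or fewer in every library. Cdh9 had 0 counts in WT and 18 and 17 in K36M, 6.42-fold higher by the same floor, with a counting interval that starts at 4.70. Cdh15, the M-cadherin gene of muscle cells, had 7 and 5 counts in WT and 1 and 0 in K36M, a ratio of 28.4 toward WT with a counting interval of 3.40 to 982.

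**Figure D3:**
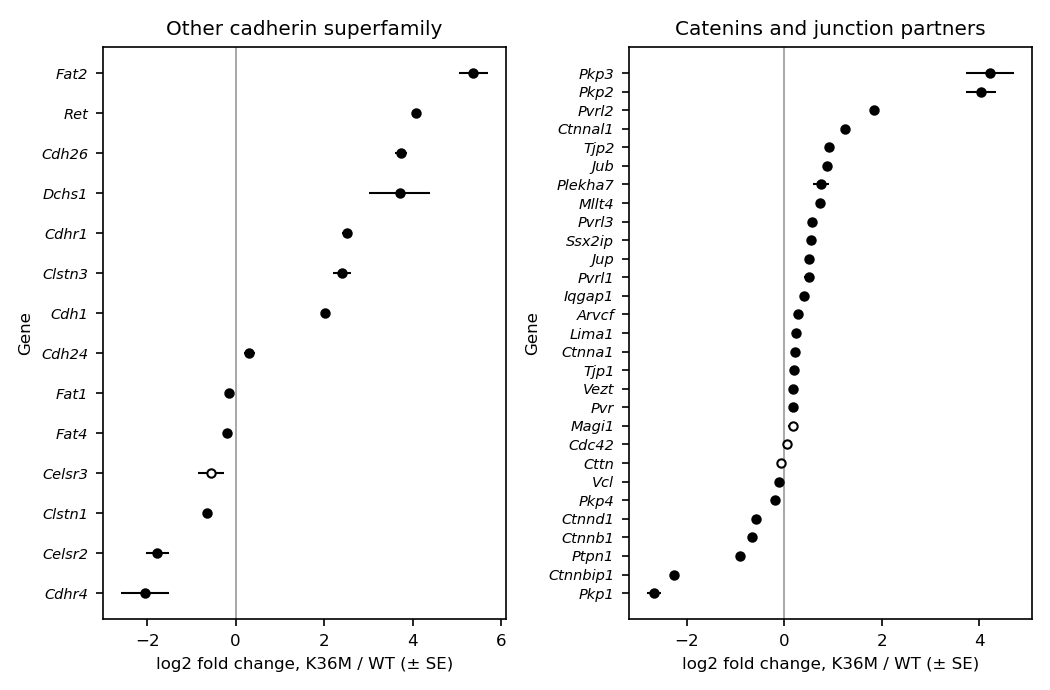
Log2 fold change of K36M over WT (points, bars of 1 SE from edgeR's test) for the 14 tested genes of the other cadherin superfamily list and the 29 tested catenins and junction partners. Filled points passed an adjusted p of 0.05, and points to the right of the grey line are higher in K36M. Fat2, Ret and Cdh26 lead the first panel, and Pkp1 and Ctnnbip1 stand lowest in the second. Fat2, Dchs1, Pkp2 and Pkp3 passed the filter through the K36M libraries only, and Cdhr4 through the WT libraries only.

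The transcripts of the proteins that hold cadherins at the membrane changed unequally. Ctnnb1, which encodes beta-catenin, fell from 1882 and 1860 CPM to 1172 and 1178 CPM (log2 fold change -0.67 ± 0.04 SE, adjusted p = 1.93e-11). Ctnnd1, which encodes the p120-catenin that keeps cadherins at the surface, fell from 829 and 843 CPM to 557 and 555 CPM (-0.59 ± 0.03, adjusted p = 1.98e-11). In the other direction, Ctnna1, the alpha-catenin gene, rose from 644 and 618 CPM to 740 and 738 CPM (0.23 ± 0.04, adjusted p = 1.25e-05). Jup, the gene of plakoglobin, which can take the place of beta-catenin, rose from 19.0 and 17.1 CPM to 26.8 and 24.5 CPM (0.51 ± 0.07, adjusted p = 4.72e-06).

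Of 33 catenin and adherens junction genes, 29 were tested, of which 19 rose, 7 fell and 3 did not pass, with a median log2 fold change of 0.23. Over all genes tested 38.5% rose and 37.1% fell, with a median of 0.00. Of the plakophilin genes, Pkp3 and Pkp2 rose from near 0, while Pkp1 fell and Pkp4, the most abundant, fell slightly. Pkp3 and Pkp2 passed the filter through the K36M libraries only, and without them 17 of 27 rose. Pkp4, named after its values were seen, measured 87.1 and 83.5 CPM in WT and 75.9 and 73.1 CPM in K36M (log2 fold change -0.19, adjusted p = 0.000983). Pkp2 stood at 0.242 and 0.130 CPM in WT and 2.89 and 3.54 CPM in K36M (adjusted p = 1.35e-09). Pkp3, with 3 counts in WT, had a ratio of 20.3 with a counting interval of 6.50 to 96.0 (adjusted p = 3.86e-07). Pkp1 fell from 10.8 and 9.43 CPM to 1.71 and 1.38 CPM (adjusted p = 2.46e-12). Pvrl2, which encodes the adhesion protein nectin-2, rose 3.58-fold (adjusted p = 4.69e-13). Ctnnbip1, an inhibitor of beta-catenin's binding to TCF factors, fell from 111 and 107 CPM to 22.5 and 22.9 CPM (adjusted p = 6.04e-18). Ptpn1, a tyrosine phosphatase known to bind N-cadherin, fell from 89.4 and 89.9 CPM to 47.6 and 48.3 CPM (adjusted p = 2.15e-12).

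Of 19 listed proteases that mature or shed cadherins 18 were tested, of which 3 rose, 8 fell and 7 did not pass, against 38.5% rising and 37.1% falling among all genes tested. Their median log2 fold change was -0.08, and that of all genes 0.00. Mmp3 and Mmp9 passed the filter through the K36M libraries only, and of the other 16 genes 1 rose and 8 fell. Aph1b, a subunit of the gamma-secretase that cuts cadherin stubs, fell from 46.7 and 48.5 CPM to 13.1 and 14.4 CPM (adjusted p = 6.32e-15). The presenilin gene Psen2 fell by 0.67 on the log2 scale (adjusted p = 2.42e-06), and the sheddase gene Adam17 also fell by 0.67 (adjusted p = 5.51e-11). Adam10, the main sheddase of N-cadherin, named after its values were seen, fell from 244 to 195 CPM in the means (log2 fold change -0.33, adjusted p = 2.84e-07). Adam19 rose from 7.70 and 6.86 CPM to 34.3 and 35.1 CPM (adjusted p = 6.46e-15). Mmp9, with 2 counts in WT, had a ratio of 40.5 with a counting interval of 10.8 to 331 (adjusted p = 4.75e-08). Both of its WT counts came from replicate 1, and its log2 fold change of 5.19 was 4.29 without WT replicate 2, while leaving out WT replicate 1 leaves 0 counts in WT. Under upper quartile scaling or total counts 5 rose and 8 fell, which moves the rising share of calls from 27.3% to 38.5%. Over all genes that share was 51.0%, and 55.0% and 55.9% under the same scalings. The authors' library factors moved it the other way, with 3 proteases rising and 10 falling. The rising share was then 23.1%, against 43.3% over all genes.

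Repressors known to act on cadherin genes, mainly on Cdh1, which is not a member, were divided. Of 12 listed genes 11 were tested, of which 6 rose and 4 fell (median log2 fold change 0.27), against 38.5% rising and 37.1% falling among all genes tested (median 0.00). Snai2 fell from 126 and 129 CPM to 36.1 and 38.3 CPM (adjusted p = 1.42e-16), Snai1 from 94.6 and 90.6 CPM to 44.0 and 38.3 CPM (adjusted p = 1.56e-12), and Zeb2 from 112 and 119 CPM to 38.4 and 40.0 CPM (adjusted p = 1.59e-15). Gsc, the goosecoid homeobox gene, fell from 6.74 and 7.34 CPM to 0.634 and 0.547 CPM (adjusted p = 1.3e-12). Twist1 rose from 20.8 and 21.8 CPM to 39.9 and 38.1 CPM (adjusted p = 1.22e-10) and Twist2 from 11.3 and 13.1 CPM to 30.9 and 30.3 CPM (adjusted p = 1.07e-11). Klf8 rose by 0.97 on the log2 scale (adjusted p = 1.32e-08) and Zeb1 by 0.37 (adjusted p = 7.91e-07). No link between these genes and the cadherin levels was tested.

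**Figure D4:**
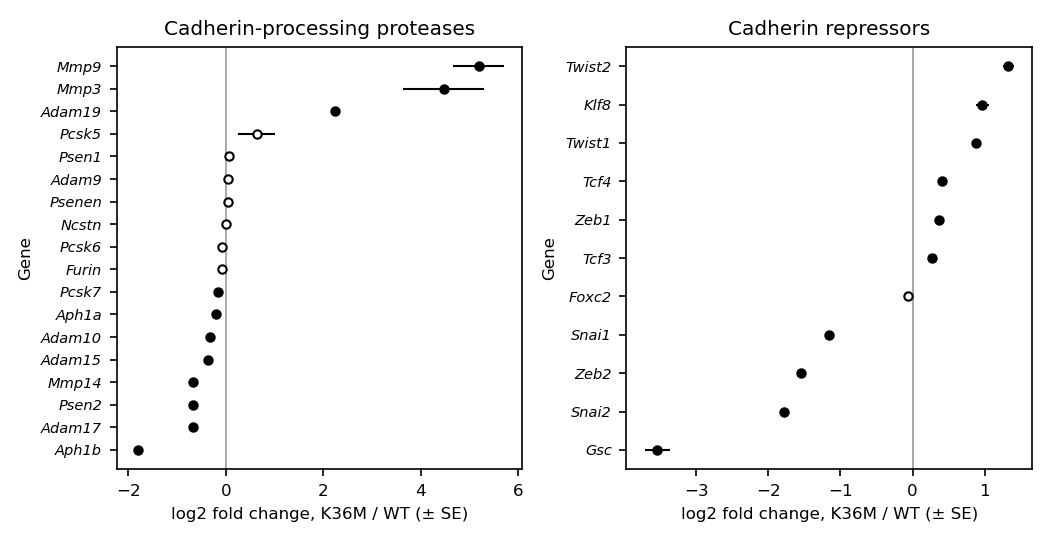
Log2 fold change of K36M over WT (points, bars of 1 SE from edgeR's test) for the 18 tested proteases that process cadherins and the 11 tested repressors of cadherin genes. Filled points passed an adjusted p of 0.05, and Mmp3 and Mmp9 passed the filter through the K36M libraries only. Aph1b stands lowest among the proteases, and Snai1, Snai2, Zeb2 and Gsc are lower while Twist1, Twist2, Klf8 and Zeb1 are higher among the repressors.

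Several members are best known from cell types other than mesenchyme, so markers of those types are given beside them. Their calls are to be read against the 38.5% of all genes tested that rose and the 37.1% that fell. Of the 12 mesenchyme and fibroblast markers, all tested, 2 rose (Col1a1 and Thy1), 9 fell and 1 did not pass, with a median log2 fold change of -0.41. In bulk RNA, fewer cells of a type and less RNA per cell cannot be told apart. For Cdh5, the endothelial list of 12 summed to 96.8 and 96.6 CPM in WT and 86.1 and 83.1 CPM in K36M. Of these 12, 8 stood under 1 CPM in both groups, Cldn5 and Sox17 at 0 counts and Kdr at 0 counts in WT and 3 and 2 in K36M. Most of the sum came from Flt1, which rose from 40.6 to 68.7 CPM in the means (adjusted p = 8.32e-11), and Tek, which fell from 28.1 to 4.73 CPM (adjusted p = 4.21e-15). Erg, an endothelial ETS factor, fell from 17.5 to 0.223 CPM (adjusted p = 1.79e-16) and passed the filter through the WT libraries only, and Vwf was the 1 of 4 tested genes that did not pass.

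For Cdh17, the intestinal list of 10 summed to 2.28 and 3.01 CPM in WT and 3.13 and 2.80 CPM in K36M, less than Cdh17 alone in K36M. Cdx2, Fabp1 and Tff3 had 0 counts, and of 4 tested genes Cdx1 and Muc2 rose and 0 fell, both having passed the filter through the K36M libraries only. For Cdh3 and Cdh1, the epithelial list of 12 summed to 6.72 and 5.82 CPM in WT and 3.23 and 3.01 CPM in K36M, with Epcam and Cldn4 at 0 counts and Krt14 making up most of the WT sum. Of its 4 tested genes Krt14 fell, while Krt8, Krt19 and Esrp1 were higher but under 1 CPM in K36M. These 3 passed the filter through the K36M libraries only, so their direction was largely set by it. For Cdh19, the Schwann cell and glia list of 10 summed to 113 and 116 CPM in WT and 32.0 and 34.3 CPM in K36M, the opposite direction to Cdh19. S100b carried most of it in WT, 1 of 7 tested genes rose (Ngfr, which passed the filter through the K36M libraries only) and 6 fell, and Sox10 had 1 count in each WT library and 0 in K36M.

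For Cdh10 and Cdh18, 9 of 10 neuronal markers were in the matrix, and summed to 15.6 and 15.3 CPM in WT and 33.3 and 32.7 CPM in K36M. Most of the sum came from Tubb3, at a mean of 13.1 CPM in WT and 25.2 CPM in K36M. Stmn2, Tubb3 and Syp passed the test, all higher, and the other 6 stayed under 1 CPM in both groups. For Cdh23, the hair cell and tip link list of 10 summed to 2.70 and 2.30 CPM in WT and 12.2 and 11.5 CPM in K36M. Its tip-link partner Pcdh15 had 0 counts in WT and 20 and 12 in K36M, and Myo7a, the myosin of hair bundles, rose from 1.34 to 7.60 CPM in the means (adjusted p = 2.93e-11), while Tmc1 and Pou4f3 had 0 counts. Of its 4 tested genes 4 were called higher, but Pcdh15 and Cib2 passed the filter through the K36M libraries only, which leaves 2 that met it in both groups. Blood and macrophage markers summed to 8.31 and 9.30 CPM in WT and 42.5 and 41.1 CPM in K36M, with Hba-a1 at 26.0 CPM in the K36M mean, and of 6 tested genes 4 rose and 1 fell, Hba-a1 and Csf1r having passed the filter through the K36M libraries only. The part of any of these cell types in the cadherin levels was not tested.

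**Figure D5:**
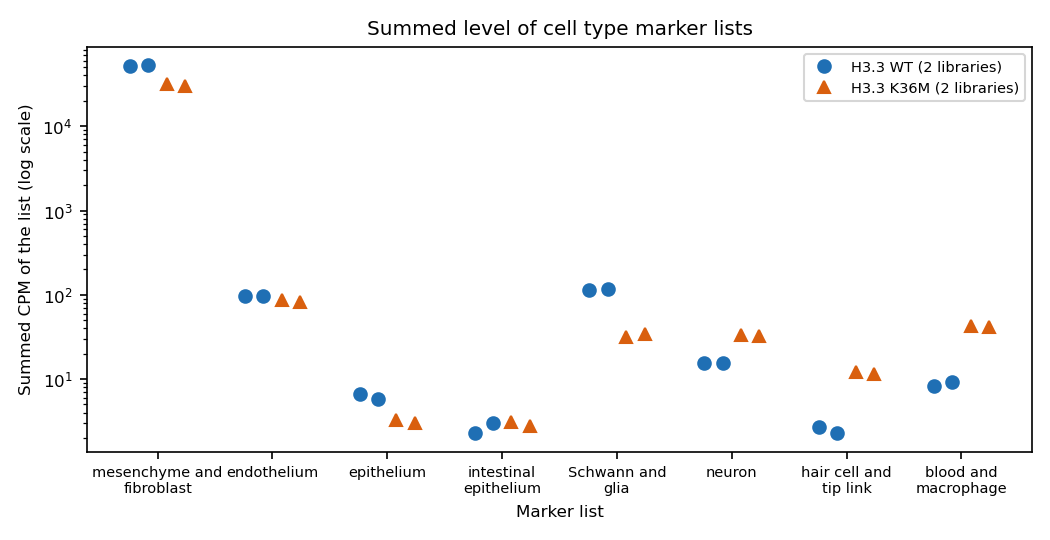
Summed CPM (log axis) of 8 lists of cell type markers in each of the 4 libraries, circles for H3.3 WT and triangles for H3.3 K36M. The mesenchyme list lies at 29880 CPM or more in every library, and every other list at 116 CPM or less.

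Cadherin genes often lie beside each other in the genome, and the nearest protein-coding genes found in the matrix were read from the GRCm38 gene order. Calls among these neighbours are to be read against the 75.6% of all genes tested that passed, 38.5% rising and 37.1% falling. A shared change of neighbours was not tested. Cdh11 and Cdh5 are neighbours on chromosome 8, and both stood higher in K36M. Beyond Cdh5 lies Bean1, which rose from 0.242 and 0.372 CPM to 2.22 and 2.54 CPM (adjusted p = 5.19e-08). Bean1 met the filter through the K36M libraries only, so its direction was largely set by the filter. Beyond Cdh11 lies Cdh8, with 0 counts in WT and 2 and 0 in K36M. Cdh3 lies next to Cdh1, both higher in K36M, while Zfp90 on its other side did not pass the test (log2 fold change 0.01, adjusted p = 0.907). Cdh10 lies between Cdh9 and Cdh12, so the member that was lower stands beside one that had counts in K36M alone and one that had none. Gem beside Cdh17 rose from 0.565 and 0.478 CPM to 6.14 and 5.18 CPM (adjusted p = 4.04e-11), and Basp1 beside Cdh18 from 53.4 and 52.8 CPM to 176 and 159 CPM (adjusted p = 1.85e-15). Pdp1, on the other side of Cdh17, rose by 0.42 on the log2 scale (adjusted p = 4.94e-07). Dsel beside Cdh19 did not pass (adjusted p = 0.214). The neighbours of Cdh13 moved in opposite directions, Hsbp1 falling by 0.31 (adjusted p = 1.82e-06) and Mphosph6 rising by 0.26 (adjusted p = 0.0115). Beside Cdh23, which was higher, Slc29a3 fell by 0.53 on the log2 scale (adjusted p = 9.97e-09) and Psap did not pass (adjusted p = 0.0647).

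The genes whose levels in the 4 libraries lay nearest to a leading member were found by the Euclidean distance of log2 CPM over 20325 genes. For Cdh2 they included Tenc1 (distance 0.04) and Arf4 (0.11). Tenc1, which encodes a tensin of focal adhesions, measured 326 and 325 CPM in WT and 255 and 242 CPM in K36M. For Cdh11 they were Pdlim5 (0.14), Reep5 (0.20) and Maoa (0.21). Pdlim5, which encodes a protein of actin stress fibres, stood at 169 and 169 CPM in WT and 383 and 384 CPM in K36M. With 2 groups of 2 libraries, such likeness means a similar level in each group and no more.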

How the data were processed

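RNA sequencing of 4 libraries (2 WT, 2 K36M) was used, grouped by title. The submitters' processing notes name Bowtie 1.0.0, RSEM 1.2.12 and build mm9. The deposited matrix holds raw RSEM expected counts, per the file headers. Strand and poly(A) selection are not given in the sources used here. A second table of 594 genes holds log2 values deposited by the authors, equal to log2 of a scaled expected count plus 1 (largest difference 4.97e-09). The authors' fold there is K36M over WT on a linear scale, from means that include that added 1.

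Expected counts were rounded and tested with edgeR 4.0.16 (R 4.3.3): filterByExpr, TMM scaling, quasi-likelihood F test with 2 residual degrees of freedom, Benjamini-Hochberg adjustment over the 13162 genes left, called at an adjusted p under 0.05. SE is the log2 fold change divided by the root of F. CPM use unrounded counts. The scripts were tested on simulated data. Cadherin members got no test.

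The members and lists were chosen with earlier results of these data known. Genes named from a list were the 3 largest changes in each direction past the threshold with a mean of at least 1 CPM in a group, plus a few fixed genes (Cdh1, Cdh4, Cdh6, the main catenins, Snai, Twist1 and Zeb genes). Coding lengths (the longest per symbol in GENCODE vM21 on GRCm38) were added after the files were seen, in departure from a plan that allowed lengths from a protein table only. The alternatives were other scalings, no filter, DESeq2 1.42.0, limma-voom (limma 3.58.1), a replicate block, each library left out and, chosen after seeing the data, only the genes that met the filter in both libraries of both groups. A gene near Cdh2 in level is not reported here.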

Additional observations from a re-analysis of the deposited data

How the results depend on the processing

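All 10 cadherins kept their direction under 4 other scalings and with each library left out. Cdh2 ranged from -0.48 to -0.35 on the log2 scale, Cdh10 from -1.08 to -0.92, Cdh13 from -0.65 to -0.50, Cdh11 from 1.04 to 1.18 and Cdh17 from 2.96 to 3.15. Without division by length, Cdh2 made up 57.7% of the summed Cdh level in WT and Cdh11 51.5% in K36M. The number of rising proteases was 5 under upper quartile scaling and 5 with total counts, against 3, and 1 among genes that met the filter in both groups (a setting chosen after seeing the data). Over all genes tested, the authors' library factors turned the balance of calls, with 4360 higher and 5709 lower against 5070 and 4879. Cdhr4, named after its values were seen (log2 fold change -2.05, adjusted p = 0.00212) lost its call when WT replicate 1 was left out (0.053) and with the DESeq2 Wald test (0.0585). A replicate block called 5008 genes higher and 4796 lower, against 5070 and 4879, and left the counts of the 4 lists as they were (8 and 5, 19 and 7, 3 and 8, 6 and 4). Same-numbered libraries did not deviate together (correlation 0.01 over genes), and the labels do not say that a number marks a shared culture. Depth limits Cdh3, Cdh5, Cdh18, Cdh19 and Cdh23, which had 21 counts or fewer in each WT library. The correlation between replicates and all p-values rest on 2 libraries a group.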
